A study of Saposhnikovia divaricata with 9 samples.

Results

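Of the 63753 clusters in the expression table of Saposhnikovia divaricata leaves, 65 were high in every library of the group coded L while staying at about the same level in the groups coded M and C. A cluster is the unit of the table, named in its header as a gene and given here by an identifier only. Members were chosen from the measured FPKM values (fragment numbers corrected for cluster length and for library depth). The lowest of the 3 L values had to reach 20 FPKM and at least 4 times the highest of the 6 M and C values plus 1, the ratio (M mean + 1)/(C mean + 1) had to lie between 0.67 and 1.5, and the C mean had to lie below 1000 FPKM. The values that define the set are therefore given as a description, without a test.

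The study sequenced poly(A) RNA from leaves in 9 libraries, 3 each in the groups L, M and C, to follow the response of this medicinal herb of the carrot family to cold. Its design text describes plants 48 days old, kept at 4 °C for 6 h or 48 h or left as controls, in triplicate. The labels give only the codes L, M and C with replicate numbers and do not tie a code to the control or to a length of cold, so all results are given by code. Nothing in the labels says that replicates came from separate plants, so the spread between them may be technical.

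Leaves of temperate plants answer cold in waves. Signalling proteins and transcription factors, the CBF family among the best known in Arabidopsis, respond early, and genes for protective proteins, soluble sugars, membrane lipids and specialised metabolites respond over a longer time. A transcript that moves in 1 of 3 sampled conditions separates that condition from both others, whereas a transcript that moves in several is shared between them. In the table used here the identifiers come with FPKM values alone, without names, descriptions or sequences, so the 65 clusters are described by their levels and patterns and no function is assigned to any of them. For the same reason leaf markers and markers of other tissues or organisms could not be checked.

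Summed over clusters, the libraries held 863749 to 932785 FPKM, and the number of fragments is unknown. Steps among low values put the depth of the libraries at 0.961 to 1.15 times that of C replicate 1, the highest being L replicate 2. Within L, the rank correlations of replicate 2 with the other libraries were 0.863 and 0.873, while replicates 1 and 3 correlated at 0.892 (Spearman, over the 35314 clusters that reached 1 FPKM in 3 or more libraries). Within C, replicate 2 correlated with the others at 0.858 and 0.869, and those correlated with each other at 0.943. Both replicates 2 thus lay furthest from their own group, and values that rest on them are given with and without them.

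The 65 clusters together held 1.69%, 1.72% and 1.89% of all FPKM in L replicates 1 to 3. They held 0.198%, 0.177% and 0.19% in M replicates 1 to 3, and 0.171%, 0.141% and 0.206% in C replicates 1 to 3. The mean was 1.77% ± 0.11 in L, 0.188% ± 0.0105 in M and 0.173% ± 0.0326 in C (SD, n = 3 each). A few abundant clusters carried much of this. The 3 members with the highest L means made up between 46.3% and 54.5% of the members' FPKM in an L library, and the other 62 members held 0.908%, 0.78% and 0.906% of all FPKM in the L libraries. Because a bulk library gives relative amounts, more cells of a type and more RNA of these clusters per cell cannot be told apart in these values.

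**Figure D1:**
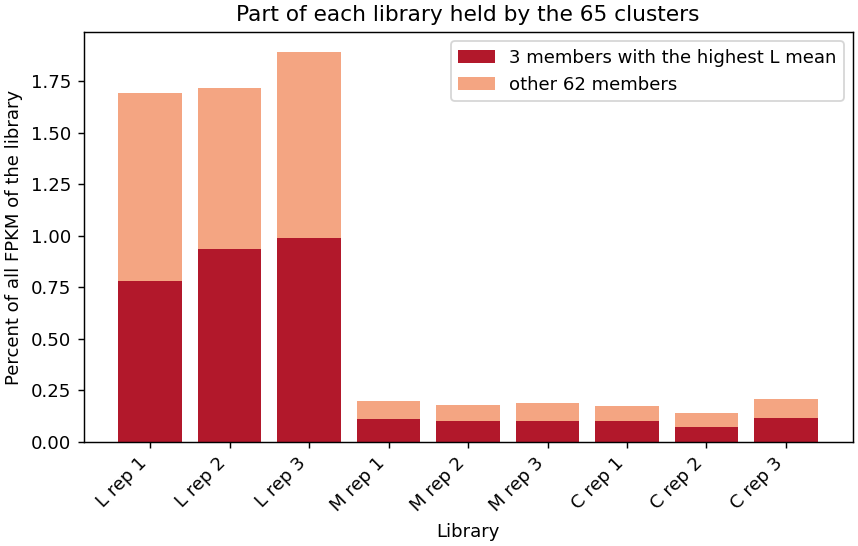
Percent of all FPKM of each library held by the 65 clusters, with the 3 members of highest L mean in dark red and the other 62 in light red. The 3 L libraries stand at 1.69% to 1.89% and the 6 M and C libraries at 0.141% to 0.206%.

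The typical member was a low transcript in M and C and a moderate one in L. The median over members of the group mean was 83.0 FPKM in L, 5.81 FPKM in M and 5.61 FPKM in C. In single libraries the members' median was 74.8, 78.7 and 87.7 FPKM in L, 5.63, 5.78 and 5.09 FPKM in M, and 4.87, 4.62 and 6.21 FPKM in C. The group means of single members ran from 27.9 to 2918 FPKM in L, from 0 to 378.9 FPKM in M and from 0 to 407.6 FPKM in C. In C, 8 members had a mean below 1 FPKM, 38 had a mean between 1 and 10 FPKM, 15 had a mean between 10 and 100 FPKM, and 4 had a mean of 100 FPKM or more. Most members were therefore detected in all groups: 59 of 65 were listed above 0 in all 6 M and C libraries. Only 1 member was listed at 0 in all 6 of them, and it stood at 26.79, 60.11 and 34.82 FPKM in L replicates 1 to 3. Another was listed at 0 in the 3 C libraries and reached at most 0.95 FPKM in M, against 22.38, 75.25 and 36.06 FPKM in L replicates 1 to 3.

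**Figure D2:**
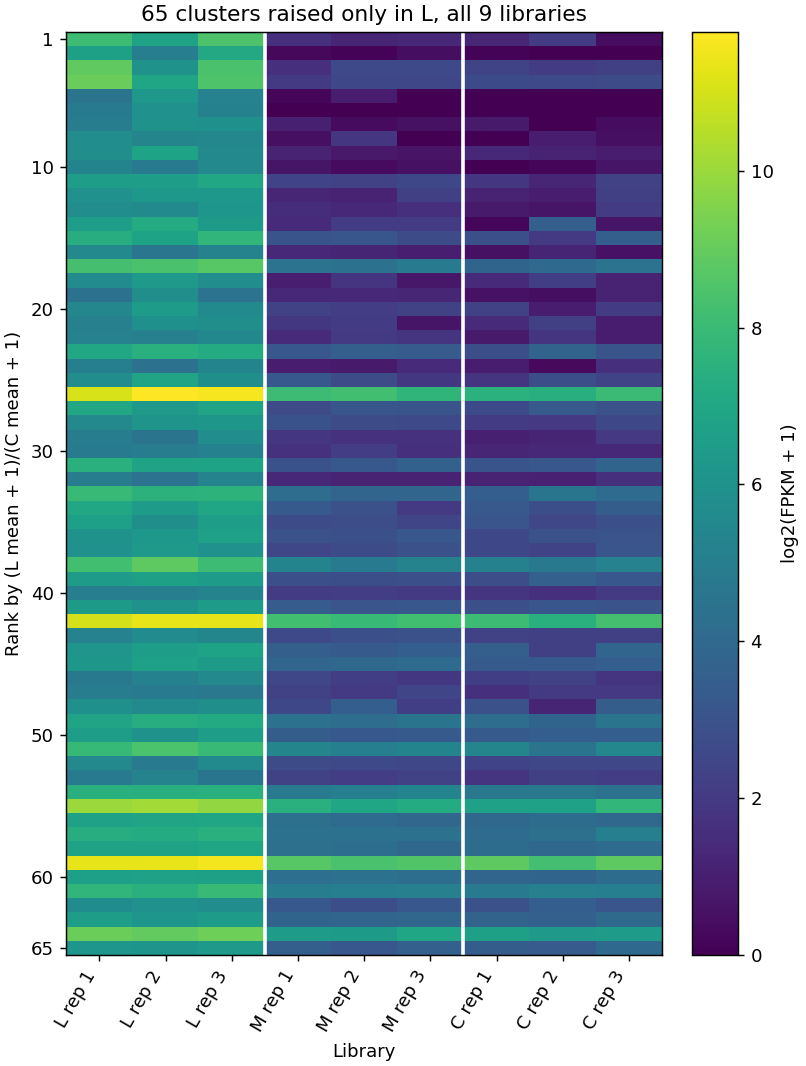
Level of the 65 clusters (rows, ordered by the ratio of the L mean to the C mean, each plus 1) in the 9 libraries (columns, L then M then C) as log2(FPKM + 1). Every row is brighter in the 3 L columns than in the 6 others, and the brightest rows are the members with L means above 1000 FPKM.

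The size of the difference varied widely among members. The ratio (L mean + 1)/(C mean + 1) ran from 5.84 to 92.3, with a median of 12.3 and quartiles of 7.76 and 20.7. It was at least 10 in 39 members, at least 20 in 17 and at least 50 in 4. Against M, the ratio (L mean + 1)/(M mean + 1) ran from 5.04 to 94.0, with a median of 11.3. On the log2(FPKM + 1) scale the median difference of the members was 3.62 between L and C and 3.49 between L and M, and over all 35314 clusters tested the medians of these differences were -0.56 and -0.55. In the model fitted to all tested clusters (limma, Benjamini-Hochberg adjusted p below 0.05 and at least 2-fold), all 65 members were called higher in L against C, where 10.2% of tested clusters were, and all 65 in L against M, where 5.99% were. Both calls together were made for 5.2% of tested clusters. The rule used these contrasts, so nothing is read from these counts. Likewise every L library lay above every M and C library in all 65 members, by construction, and in 8.31% of tested clusters.

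Members were grouped by their L mean. Below 50 FPKM there were 18 members, with a median ratio of L to C of 14.3 and a range of 7.29 to 45.6. Between 50 and 200 FPKM there were 34 members, with a median ratio of 11.6 and a range of 5.84 to 88.4. Between 200 and 1000 FPKM there were 9 members, with a median ratio of 12.3 and a range of 5.96 to 92.3. The 4 members at 1000 FPKM or more had a median ratio of 8.23 and a range of 6.74 to 14.3, and they held 57.5% of the members' FPKM in L (mean of 3 libraries). The classes overlapped widely in their ratios.

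The largest ratio belonged to Cluster-17261.9192. It stood at 273.37, 107.85 and 352.58 FPKM in L replicates 1 to 3. In M it stood at 2.02, 1.32 and 1.5 FPKM, and in C at 1.37, 3.28 and 0.33 FPKM. The M and C values overlapped near the bottom of the measured range, and L replicate 2 was well below the other L libraries. The log2 difference was 6.53 between L and C and 6.40 between L and M, each with a standard error of 0.50. The size rests on the pseudocount, since C is low: the difference for L against C was 7.41 with 0.1 in place of 1, and 5.10 with 5.

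The highest level in L belonged to Cluster-17261.22931. It stood at 2117.49, 3483.16 and 3154.22 FPKM in L replicates 1 to 3. It was already abundant elsewhere, at 265.12, 292.37 and 208.25 FPKM in M and at 181.4, 170.74 and 257.48 FPKM in C. By mean it ranked 39 of all clusters in L, 382 in M and 514 in C. Its log2 difference was 3.83 between L and C and 3.49 between L and M, each with a standard error of 0.25. The pseudocount hardly moved the difference of L against C, to 3.84 with 0.1 and 3.80 with 5. For M against C the difference was 0.34 with the same standard error.

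**Figure D3:**
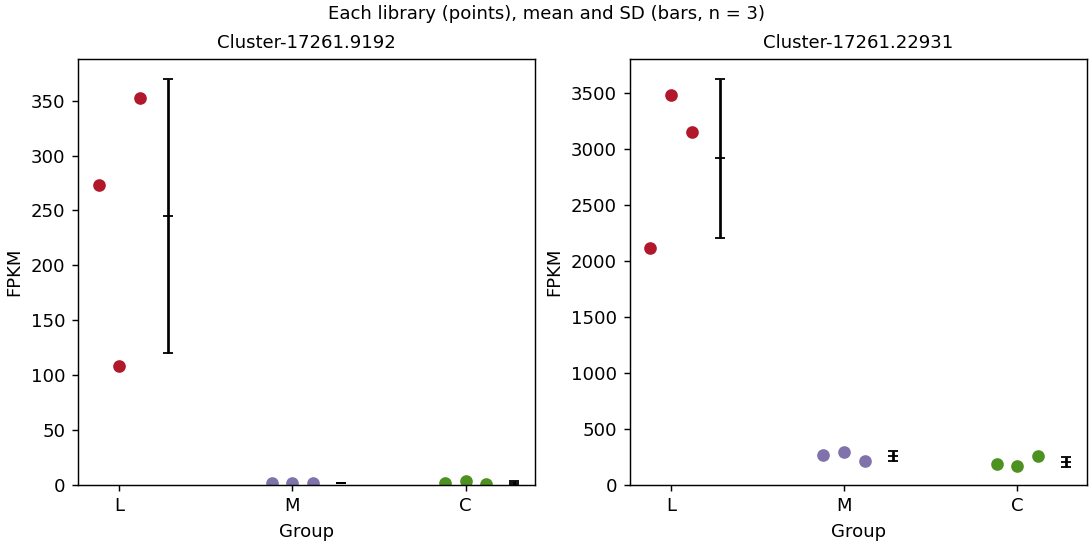
FPKM of the member with the largest ratio (left) and of the member with the highest L mean (right) in each library, with the mean and SD of each group (n = 3). On the left L replicate 2 lies at 107.85 FPKM below the other L libraries. On the right the L values lie at 2117.49 FPKM or more and the M and C values at 292.37 FPKM or less.

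Of the other 3 members above 1000 FPKM, the next stood at 2587.69, 2693.19 and 2976.54 FPKM in L, at 419.8, 337.13 and 379.76 FPKM in M and at 466.47, 299.9 and 456.46 FPKM in C. The third stood at 2052.02, 2557.13 and 2576.73 FPKM in L, at 298.23, 243.38 and 294.06 FPKM in M and at 266.09, 176.7 and 315.88 FPKM in C. In both, the M and C values overlapped and C replicate 2 was the lowest of all 6. The fourth stood at 1019.76, 1122.17 and 914.84 FPKM in L, at 174.06, 120.35 and 151.51 FPKM in M and at 106.72, 104.64 and 221.31 FPKM in C, where replicate 3 exceeded every M library. These 4 were the only members among the 100 clusters with the highest L means, and 19 members were among the highest 1000.

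The 4 members with the largest ratios also had a wide spread among the L libraries. The ratio uses the mean of the same L values, so the spread is not a separate feature. The 4 largest ratios, from 54.0 to 92.3, all had L replicate 2 as the lowest L library. The second of them stood at 101.66, 31.23 and 138.06 FPKM in L replicates 1 to 3, against at most 0.36 FPKM in M and 0.1 FPKM in C. The third stood at 480.87, 63.72 and 338.12 FPKM in L, against 2.11, 4.97 and 5.1 FPKM in M and 4.36, 3.19 and 3.74 FPKM in C. The fourth stood at 535.73, 118.24 and 363.01 FPKM in L, against 3.05, 4.88 and 4.69 FPKM in M and 5.28, 5.06 and 5.56 FPKM in C. Even the low L replicate 2 was far above M and C in these clusters, as the rule required of the lowest L value. Without L replicate 2 the 4 ratios of L to C were 118, 117, 86.2 and 71.5, and with L replicate 2 alone they were 40.9, 31.2, 13.6 and 18.9.

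Across the 65 members the highest L value was at least 2 times the lowest in 12. In 5 of these L replicate 2 was the lowest and in 7 it was the highest, so replicate 2 was at an extreme in all 12. The 7 with replicate 2 highest had L means of 31.9 to 75.9 FPKM, and replicate 2 stood at 1.497 to 2.64 times the mean of the other L libraries. In the 5 with replicate 2 lowest it stood at 0.156 to 0.538 times that mean. The same library was also the usual extreme outside the set: of 3661 other clusters with at least 20 FPKM in every L library and an L mean in the members' range, 492 or 13.4% were 2-fold apart, and L replicate 2 was the lowest or highest in 87.6% of those. The median coefficient of variation within L was 22.5% for members and 16.9% for those other clusters. No test was made of these differences, because the rule uses the lowest L value and the L mean.

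The 12 members that were 2-fold apart had a median ratio of L to C of 39.7, and the other 53 had a median of 10.1. The 2-fold apart members made up 8 of the 10 largest ratios. The rule fixes part of this pattern, since a cluster with a ratio near the lower end can enter only if its L values lie close together. Over all members the median ratio was 12.8 without L replicate 2, 10.7 with L replicate 2 alone and 11.8 without C replicate 2, against 12.3 with all libraries.

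**Figure D4:**
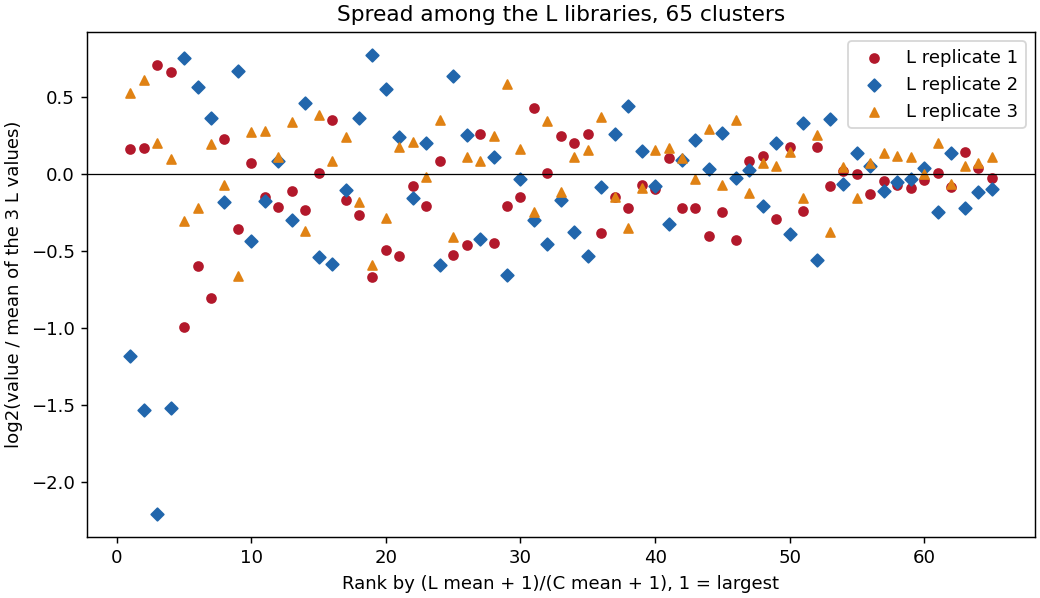
Each L library relative to the mean of the 3 L values of the same cluster (log2), for the 65 clusters ordered by the ratio of L to C from largest (left) to smallest. L replicate 2 (blue) lies lowest in the 4 clusters with the largest ratios, and the points close in on 0 towards the right, where the rule leaves little room for a wide spread.

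The L libraries took the top and bottom place in unequal shares. L replicate 3 was the highest L library in 29 members, or 44.6%, and the lowest in 8, or 12.3%. Of the 3661 other clusters in the same range of L mean it was the highest in 22.7% and the lowest in 34.1%. L replicate 1 was the lowest in 28 members, or 43.1%, and in 31.7% of those other clusters. L replicate 2 was the lowest in 29 members, or 44.6%, and in 34.3% of those other clusters. It was the highest in 35.4% of members and 46.0% of the others, and L replicate 1 in 20% and 31.2%. Within C, replicate 2 was the lowest library in 30 members, or 46.2%, and in 44.5% of those other clusters. The shares of members and other clusters lay close together in C and further apart in L. These differences were not tested, since the rule uses the lowest L value.

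Between M and C the members were held close by the rule. The M mean was above the C mean in 46 members, below it in 18 and equal in 1, that is above in 70.8% of members against 46.4% of tested clusters. Without C replicate 2 it was above in 40 members and in 49.9% of tested clusters. Without C replicate 1 or 3 it was above in 40 and 49 members, and in 44.3% and 47.8% of tested clusters. The rule uses the M and C values, so these shares were not tested and nothing is read from them. The ratio (M mean + 1)/(C mean + 1) had a median of 1.08, 1.05 without C replicate 2 and 1.17 without C replicate 3, and quartiles of 0.995 and 1.246 with all libraries. It lay between 0.9 and 1.1 in 27 members, above 1.2 in 18 and below 0.8 in 4. All 3 M values were above all 3 C values in 9 members and below them in 1. The matching shares of all tested clusters were not computed, so nothing is read from these counts either. In the fit across all clusters 0 of 65 members were called in M against C, where 12.9% of tested clusters were. The members' log2 differences ran from -0.454 to 0.593, short of the 2-fold limit of a call. The limit of 1.5 holds for the ratio of means, while the fit compares means of logs. It therefore curbs such calls without fixing each one. At an adjusted p below 0.05 without a limit on size, 1 member passed, against 17.8% of tested clusters, and nothing is read from this count, since the rule limits this contrast too. That member stood at 13.26, 14.97 and 16.14 FPKM in M and 9.11, 9.22 and 10.27 FPKM in C, with a log2 difference of 0.58, and at 74.77, 106.68 and 84.39 FPKM in L. With C replicate 2 left out of the fit, 1 of the same 65 members was called higher in M against C. Of the 35314 tested clusters, 3334 were then called higher and 2230 lower, and nothing is read from this count. The member with the lowest M to C ratio, 0.759, stood at 1.77, 3.21 and 3.2 FPKM in M. In C it stood at 0.16, 10.98 and 0.59 FPKM, so its place in the set rests on C replicate 2. When the rule was applied without C replicate 2 it kept 61 of the 65 members, and without C replicate 3 it kept 56.

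The side to which clusters left this range was uneven. Without the limits on the M to C ratio, 219 clusters met the conditions on L, and the 65 members were 29.7% of them. The other 154 had a ratio above 1.5, and 0 had a ratio below 0.67. For 134 of the 219 the C mean was at least 2 FPKM, a level at which a ratio below 0.67 could be seen. The 154 clusters above the range had medians of 169.04 FPKM in L, 14.3 FPKM in M and 2.70 FPKM in C, with a median M to C ratio of 3.03. Over all 219 the M mean was below the C mean in 18, and these 18 were all members. Among all tested clusters the fit called 2883 higher and 1662 lower in M against C, which is another measure than this ratio. The M mean was above the C mean in 46.4% of tested clusters. Shares of all tested clusters above 1.5 and below 0.67 were not computed. The conditions on L use the M and C values as well, so the split is a description and was not tested.

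**Figure D5:**
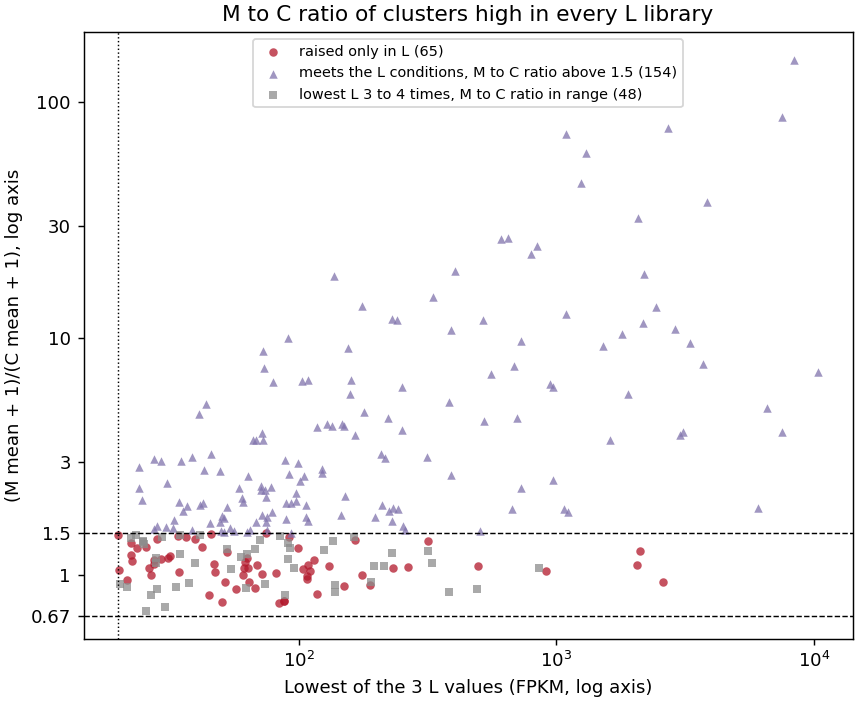
Ratio of M to C (means plus 1, log axis) against the lowest L value (FPKM, log axis) for the 65 members (red), the 154 clusters that met the L conditions with a ratio above 1.5 (purple) and 48 clusters whose lowest L value was 3 to 4 times the highest M or C value plus 1 (grey). Dashed lines mark the ratios of 0.67 and 1.5, the dotted line marks 20 FPKM, and no cluster that met the L conditions lies below the lower line.

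The limits of the set cut through a continuum. The member closest to the multiple of 4 stood at 59.13, 47.27 and 57.26 FPKM in L, 4.8, 10.52 and 3.47 FPKM in M and 6.66, 1.35 and 10.24 FPKM in C, a lowest L value of 4.1 times the highest M or C value plus 1. The closest cluster outside stood at 196.33, 271.45 and 343.93 FPKM in L, 49.35, 46.65 and 42.62 FPKM in M and 41.27, 41.18 and 44.35 FPKM in C, at 3.9 times. There were 17 members between 4 and 5 times and 48 clusters between 3 and 4 times. At the floor of 20 FPKM, the lowest member value in L was 20.02 FPKM and the nearest value outside was 19.78 FPKM. At the upper limit of the M to C ratio the last member had 1.499 and the first cluster outside 1.505.

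All 65 members carried the parent number 17261 in their identifier, the most frequent in the table, which the rule did not use. It was carried by 69.8% of all clusters and by 89.9% of those tested. Among the 4193 other clusters with at least 20 FPKM in every L library it was carried by 4190, or 99.9%, so the members did not stand apart from other clusters of that level. No member carried another parent number, and no small group of clusters under a shared parent number could therefore be followed.

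Sets built by mirrored rules were of different size. By the same limits, except that on the C mean, 88 clusters were lost only in L. Their median group means were 4.57 FPKM in L, 65.3 FPKM in M and 69.6 FPKM in C. Raised alike in L and M were 38 clusters, with medians of 82.1 FPKM in L, 86.3 FPKM in M and 4.33 FPKM in C. Peaking only in M were 6 clusters. The sets lost only in L and raised alike asked every library of both high groups to reach 20 FPKM. The members' rule asked this of the L libraries only, so the sizes are not like for like. The set raised only in L was thus larger than that raised alike in both and smaller than that lost only in L, but the second order turned with the scaling of the libraries. After scaling every library to the same median, 249 clusters were raised only in L, 22 were lost only in L, 14 were raised alike in L and M, and 0 peaked only in M. After quantile normalization the numbers were 100, 47, 41 and 4. All 65 members were among the 249, and 60 of them were among the 100. The members' median ratio of L to C was 22.3 after median scaling and 13.6 after quantile normalization.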

How the data were processed

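The authors deposited 1 table of FPKM values, the unit named per the file headers, with 2 decimals for each cluster in each library. Which aligner, assembler or counting tool made them is not given in the sources used here. An animal tissue in the labels' extraction text and a mouse build in the genome field cannot describe leaves, and neither was used. Libraries were grouped by the codes in their titles. Members and comparison sets were chosen with earlier results of these data known.

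A cluster was tested if it reached 1 FPKM in 3 or more libraries (35314; 28439 were left out), and all 65 members passed this filter, which they had to by their L values. log2(FPKM + 1) was fitted for the 3 groups, using the 9 libraries together, by limma 3.58.1 under R 4.3.3 (intensity trend, 6 residual and 2.88 prior degrees of freedom), with Benjamini-Hochberg adjustment over all tested clusters. Fold changes on this scale understate the change of low clusters. An exact 0 may be a failed estimate. Fragment counts are unknown, so no counting interval is given. Relative depth was derived from the most frequent ratio between the low values of a library and those of C replicate 1. The naming rule took the members with the largest ratio of L to C and the highest L mean, and other members are given by rank or limit. The part on described genes was not applied. Alternatives covered pseudocounts, the filter, scaling, a replicate block, each library left out and the limits of the rule.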

Additional observations from a re-analysis of the deposited data

How the results depend on the processing

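The number of clusters chosen depended on the limits and the scaling. It was 65 as reported, 249 after median scaling, 100 after quantile normalization, 113 with a multiple of 3, 38 with a multiple of 6 and 219 without a limit on the M to C ratio, the last an alternative added after the data were seen. A pseudocount of 5 in the rule chose 70 clusters, 40 of them among the 65, and a pseudocount of 0.1 chose 57, with 53 among the 65. Median scaling multiplies the L values by 1.43 to 1.81 by its construction. It multiplies the M values by 0.836 to 0.847 and the C values by 0.808 to 0.929. Leaving out 1 library gave 64 to 104 clusters, the highest without L replicate 2, and the part of FPKM held in L by the clusters so chosen was 1.75% to 2.26%, against 1.77% with all libraries and 1.5% after quantile normalization of the same 65 clusters. With a pseudocount of 5 6980 clusters were called in L against C, 4776 in L against M and 1997 in M against C, and with the pseudocount of 1 the calls were 14379, 11185 and 4545. L against C had 3599 clusters higher and 10780 lower as deposited, and 6636 and 5213 after median scaling. L against M had 2117 higher and 9068 lower as deposited, and 5380 and 3841 after median scaling. Leaving out 1 library moved the calls for M against C to between 3078, without C replicate 1, and 5564, without C replicate 2. Same-numbered libraries of different groups did not deviate together, with correlations of -0.06 to 0.0307. Whether such libraries were collected or handled together cannot be told from these correlations. With the replicate number as a block, 14315, 10967 and 4089 clusters were called for L against C, L against M and M against C. The unknown depth limits what can be said of members near 0 in M and C.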
